A study of Homo sapiens with 3 samples.

Results

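The intergenic peaks of Flag-USP39 and of POLR2A in A2780 cells are the peaks that the authors' annotation placed neither inside the gene with the nearest start nor up to 20 kb before that start. They numbered 10348 of 25592 peaks. The Flag-USP39 list gave 5299 of its 11565 peaks (45.8%, 44.9 to 46.7) and the POLR2A list 5049 of 14027 (36.0%, 35.2 to 36.8). The difference of POLR2A from Flag-USP39 was -9.82 percentage points (-11 to -8.62). Each peak was counted once, with the class of the transcript whose start lay nearest to its centre. All intervals are 95% Wilson intervals for a share and Newcombe intervals for a difference, and they cover counting error only.

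A2780 is a human ovarian cancer cell line, labelled as serous. One library came from cells with Flag-USP39 precipitated with an anti-Flag antibody. A second library came from precipitation of POLR2A, the subunit of RNA polymerase II that carries its long C-terminal tail, and serves the series as positive control. The input stood for 10% of genomic DNA. With 1 library in each group there is no replicate error for any value and no test across samples, and both peak lists were called against that 1 input. The labels do not say which construct carries Flag-USP39, whether the line is 1 clone, or whether the POLR2A library came from the same cells. Positions are on hg19.

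RNA polymerase II does not stop at the end of a gene. It transcribes past the cleavage and polyadenylation site before it is released, so polymerase is found downstream of active genes. It also transcribes long non-coding RNAs, enhancers and most spliceosomal small nuclear RNA (snRNA) genes. USP39 is a splicing factor that travels with the U4/U6.U5 particle, the tri-snRNP, into the assembling spliceosome. Intergenic DNA holds the satellite repeats around centromeres and the repeats at chromosome ends, whose copies are hard to place with short reads.

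The depth behind 1 peak was low. The median intergenic peak held 4 tags in both lists, and 3 to 5 tags were found in 4881 Flag-USP39 peaks (92.1%) and 4453 POLR2A peaks (88.2%). The fewest tags in a listed peak were 3 for Flag-USP39 and 4 for POLR2A. Intergenic peaks held 29594 of the 62327 tags in Flag-USP39 peaks and 32240 of the 86228 in POLR2A peaks, and 22.5% and 20.3% of these intergenic tags stood in the top 10 peaks. The cell type could hardly be checked at this depth. A POLR2A promoter peak was found at 0 of 9 epithelial and Müllerian marker genes, at 1 of 3 mesenchymal ones (VIM, 6 tags), at 0 of 3 blood and at 0 of 2 liver genes. Among all genes named in either list 2338 of 12213 (19.1%) had one, so these counts do not identify a cell type.

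POLR2A lay close behind gene ends more often than Flag-USP39. Within 10 kb past the end of the named gene stood 667 POLR2A peaks, or 13.2% (12.3 to 14.2), and 432 from the Flag-USP39 list, or 8.15% (7.45 to 8.92), a difference of 5.06 points (3.87 to 6.25). The ratio of the shares was widest nearest to the end. Up to 2 kb past the end the shares were 3.72% and 1.96% (difference 1.76 points, 1.12 to 2.41). From 10 to 20 kb the difference was 0.966 points (0.0234 to 1.91). At p-values of at most 1e-10 the order was the other way on very few peaks, with overlapping intervals. There 2 of 127 POLR2A peaks (1.57%, 0.433 to 5.56) and 6 of 119 Flag-USP39 peaks (5.04%, 2.33 to 10.6) lay in this range. Between 20 and 100 kb from a start or an end, the shares of 46.7% for POLR2A and 47.4% for Flag-USP39 were not told apart by counting error (difference -0.701 points, -2.62 to 1.22). Beyond 100 kb the order turned, with 1675 POLR2A peaks (33.2%) and 2040 Flag-USP39 peaks (38.5%), a difference of -5.32 points (-7.16 to -3.48). The median distance past an end was 35.8 kb for POLR2A and 54 kb for Flag-USP39. Before a start it was 70.8 kb and 80.1 kb, and by the definition of the class no intergenic peak lay closer than 20 kb before a start.

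**Figure D1:**
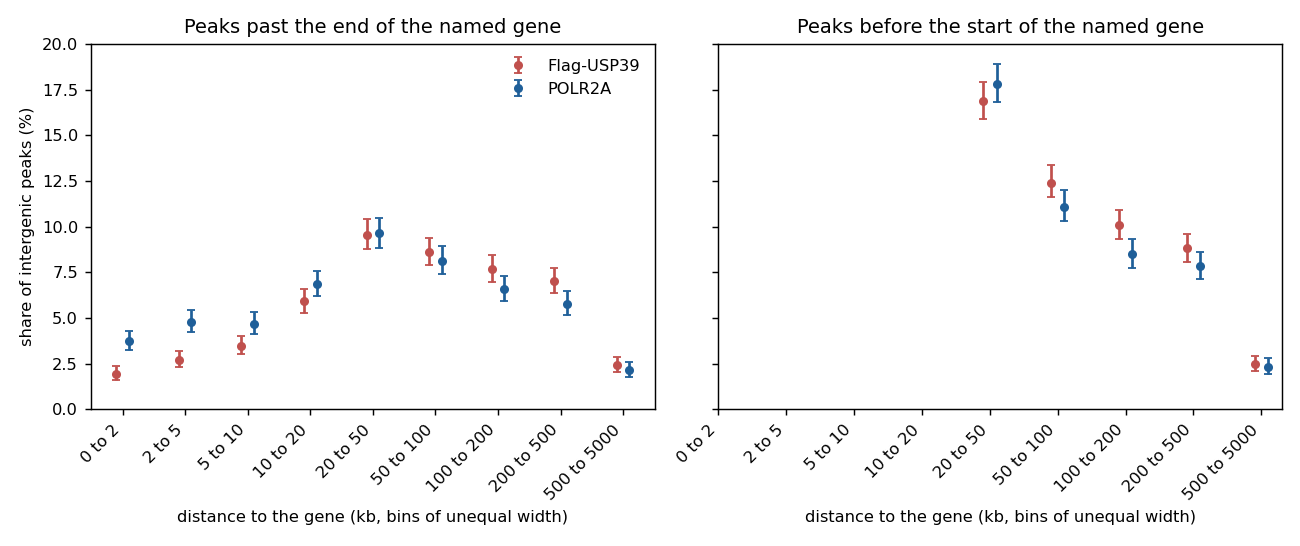
Share of the intergenic peaks of each list (vertical axis, percent) by distance in kb past the end (left) or before the start (right) of the named gene; points are shares and bars are 95% Wilson intervals. POLR2A lies above Flag-USP39 in the bins up to 10 kb past the end (3.72% against 1.96% in the first) and below it from 100 to 500 kb on both sides.

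The same order held among the peaks with 10 or more tags, which were few. Of the POLR2A intergenic peaks, 141 (2.79%, 2.37 to 3.28) held 10 or more tags, against 4.23% of the whole POLR2A list. Of the Flag-USP39 peaks, 107 (2.02%, 1.67 to 2.43) did, against 2.92% of the whole list. Intergenic peaks reached 10 tags less often than the other classes, with a difference of -2.24 points (-2.87 to -1.59) for POLR2A and -1.67 points (-2.27 to -1.06) for Flag-USP39. Within 10 kb past a gene end lay 29 of the 141 POLR2A peaks (20.6%) and 8 of the 107 Flag-USP39 peaks (7.48%), a difference of 13.1 points (4.28 to 21.3).

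The genes in front of these 29 POLR2A peaks were of several kinds, and 14 of the peaks followed a protein-coding gene. They are described after their values were seen. GJA1, which encodes the gap junction protein connexin 43, had a POLR2A peak of 16 tags 1.22 kb past its end (chr6:121771440-121772777), and an exon peak of 128 tags within the gene. Flag-USP39 had an exon peak of 124 tags in GJA1 but no peak over the past-end site, and its nearest peak was 0.558 kb away. SPRY1 and SPRY2, a pair of inhibitors of receptor tyrosine kinase signalling, each had a past-end POLR2A peak of 12 tags, 4.8 and 3.69 kb from the end. Their POLR2A promoter peaks held up to 15 and 8 tags.

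PPIA, which encodes the peptidyl-prolyl isomerase cyclophilin A, had 11 POLR2A tags 0.91 kb past its end and 6 at its promoter. EMP1, a membrane protein gene, had 11 tags 2.22 kb past its end and 7 at its promoter. ARMCX2 had 12 tags 0.156 kb past its end and 7 at its promoter. At these 3 genes and at both SPRY genes the past-end peaks overlapped no Flag-USP39 peak. Lack of overlap was common at such tags. Of all POLR2A intergenic peaks with 10 to 19 tags, 46 of 80 (57.5%) overlapped a Flag-USP39 peak. In the other classes 111 of 282 (39.4%) did. Not every such gene carried a listed promoter peak. TNFRSF1A, a receptor of tumour necrosis factor, had 10 tags 1.15 kb past its end with no POLR2A promoter peak, and CYP1A2, a cytochrome P450 known from the liver, had 17 tags 3.7 kb past its end with none either. Of the 28 genes of the 29 peaks, 13 had a POLR2A promoter peak and 3 a POLR2A peak in an exon or intron. For genes with any POLR2A peak within 10 kb past the end, the promoter share was 88 of 619 (14.2%). Among all 12213 genes named in either list it was 19.1%. FAM27C (41 tags), BTBD19 (31), SNAR-A12 (22) and KIAA2013 (21) had more past-end tags than the genes above but no POLR2A promoter peak.

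The 8 Flag-USP39 past-end peaks with 10 or more tags were mostly places where POLR2A was found too. That was no trait of past-end sites, since 92 of all 107 Flag-USP39 intergenic peaks with 10 or more tags (86%) overlapped a POLR2A peak. At MAN2B1, which encodes a lysosomal mannosidase, the peak 2.89 kb past the end held 15 Flag-USP39 and 20 POLR2A tags. VAV3, a guanine nucleotide exchange factor gene, had 20 and 19 tags 0.329 kb past its end. JOSD2, a deubiquitinase gene, had 11 and 14, and FAM153C had 19 and 17. SLC45A4 had 11 and 6, and LOC100128531 had 18 against a POLR2A peak of 20 tags in the intron class. LOC100288778, described with the chromosome ends, had 250 and 254. LINC00273 was the exception, with 42 Flag-USP39 tags at a fold enrichment of 9.18 and no overlapping POLR2A peak.

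Genes with a POLR2A peak just past the end had a POLR2A promoter peak more often than genes with one farther on. A POLR2A promoter peak was found at 88 of the 619 genes with a POLR2A peak within 10 kb past the end (14.2%, 11.7 to 17.2). It was found at 54 of 736 other genes with one 20 to 100 kb past the end (7.34%), a difference of 6.88 points (3.58 to 10.3). Among all 12213 genes named in either list the share was 19.1%, a figure that includes the genes named for their promoter peak itself. For genes with a Flag-USP39 peak past the end, the POLR2A promoter shares were 50 of 424 (11.8%) and 62 of 816 (7.6%), a difference of 4.19 points (0.795 to 7.98). Flag-USP39 promoter peaks showed no such difference. They were found at 22 of the 619 genes (3.55%) and 26 of the 736 (3.53%), with 5.28% of all named genes as background, and the interval of the difference ran from -1.97 to 2.11 points.

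Some strong POLR2A peaks had few Flag-USP39 tags or no Flag-USP39 peak, and several of these stood near snRNA loci. The peaks named for this were picked after their values were seen. In the 172 pairs of overlapping intergenic peaks, Flag-USP39 held 47.1% of the tags. The 4 pairs with the lowest Flag-USP39 share were named for LOC79999, with 9 Flag-USP39 and 118 POLR2A tags (7.09% Flag-USP39, 3.77 to 12.9), for PDZK1P1, with 6 and 68 (8.11%, 3.77 to 16.6), for CROCCP3, with 13 and 127 (9.29%, 5.51 to 15.2), and for LOC388692, with 17 and 107 (13.7%, 8.74 to 20.9). Tags were counted in each list's own peak, so these shares do not compare 1 window. The Flag-USP39 and POLR2A peaks measured 698 and 836 bp at LOC79999 and 376 and 1494 bp at PDZK1P1. They measured 356 and 1533 bp at CROCCP3 and 384 and 1157 bp at LOC388692. In the other 168 pairs the share was 48%, and no test goes with this, since the 4 were chosen for their low share. The next lowest were LINC00261, with 4 and 21 tags (16%, 6.4 to 34.7), and LINC00174, with 5 and 18 (21.7%, 9.66 to 41.9).

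These pairs were at chr17:19090986-19091821 (LOC79999), chr1:147510191-147511684 (PDZK1P1), chr1:16839438-16840970 (CROCCP3) and chr1:149223379-149224535 (LOC388692), by their POLR2A peaks. In the gene order of RefSeq on GRCh38.p14, used here for neighbours only, the gene next to CROCCP3 is RNU1-1, a U1 snRNA gene. RNU1-129P and RNVU1-7, of the same U1 family, are among the 6 genes after PDZK1P1. LOC79999 and LOC388692 were not matched, and LINC00261 has no such gene among the 6 on either side.

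Among POLR2A peaks without Flag-USP39 overlap, the matched ones with the most tags at a fold of 10 or more had snRNA neighbours. An unmatched peak named for LOC79999, apart from the pair above, also held 20 or more tags at that fold. At lower folds OR4C46 held 162 tags, LOC102723769 held 52 and FAM27C held 41. KIAA2013 had POLR2A peaks of 39 and 21 tags past its end, at chr1:11967825-11968984 and chr1:11969592-11970158, with RNU5E-1, a U5 snRNA gene, 3 genes away in the RefSeq order. PPIAL4E had a peak of 33 tags (chr1:148241110-148242063), and RNVU1-15 is the gene next to it. BTBD19 had a peak of 31 tags 5.63 kb past its end (chr1:45284917-45285947), with RNU5E-6P, a U5 copy, as the second gene on. The nearest Flag-USP39 peaks to these 4 were 186, 188, 13.2 and 27.3 kb away. EBLN2, with a POLR2A peak of 20 tags 47.6 kb past its end, also has an snRNA copy among its neighbours, and ANP32AP1, with one of 20 tags, has none.

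Counted over all such peaks, 5 of the 6 matched POLR2A intergenic peaks with 20 or more tags, a fold enrichment of 10 or more and no Flag-USP39 overlap were named for a gene with a U1, U2, U4, U5, U11 or U12 locus or copy within 6 genes (83.3%, 43.6 to 97), and 2 of the 5 share the gene KIAA2013. With a limit of 10 tags in place of 20 it was 11 of 35 (31.4%, 18.6 to 48). With a Flag-USP39 overlap and 20 or more tags it was 4 of 31 (12.9%, 5.13 to 28.9), and over all matched POLR2A intergenic peaks 350 of 4593 (7.62%, 6.89 to 8.42). In the Flag-USP39 list it was 2 of 34 peaks with 20 or more tags and that fold, beside 7.56% of all its matched intergenic peaks. The 5 peaks are those named above after their values were seen, and the limits were set with the values known. The counts therefore describe these peaks and give no separate support for a link to snRNA loci. Neighbours were counted in gene order on another build, and whether the tags lie on the snRNA genes was not tested.

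The intergenic peaks of highest fold enrichment were the same places in both lists, with nearly equal tags. At GLRX3, a glutaredoxin gene, a peak 181 kb past the end (chr10:132158411-132159040) held 204 Flag-USP39 and 210 POLR2A tags, at fold enrichments of 1371 and 1131. At IRF4, a transcription factor gene of lymphoid cells, a peak 57.8 kb past the end (chr6:468914-469663) held 101 and 125 tags, at 1023 and 923. Neither lay near the named gene.

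Other peaks of high fold enrichment behaved alike. CSNK2A3 had 157 Flag-USP39 and 163 POLR2A tags, LOC105370605 had 123 and 127, LOC105372028 had 77 and 89, and MIR548AP had 186 and 206. LOC100144595 had 59 and 49, and LOC100506271 had 101 and 107. FAM163B had 125 Flag-USP39 tags at a peak that the tables also place inside ADAMTSL2, where the overlapping POLR2A peak of 128 tags was classed as intronic. The 10 intergenic peaks of highest fold enrichment were named for the same genes in both lists, except FAM163B in the Flag-USP39 list and SCAF4, with 74 and 102 tags, in the POLR2A list.

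Many of the peaks with the most tags had a low fold enrichment. EMBP1 (chr1:121482097-121485538) held 1191 Flag-USP39 and 1296 POLR2A tags at fold enrichments of 8.19 and 6.48. LINC00680-GUSBP4 (chr6:58776102-58779625) held 840 and 1023 tags at 1.89 and 1.73, the lowest folds of any intergenic peak in their lists. LOC101927151 on chromosome 19 held 486 and 526, LOC441666 on chromosome 10 held 297 and 389, and OR4C46 on chromosome 11 held 175 and 216, all at fold enrichments under 10. ZNF733P (chr7:61967202-61970850) held 831 Flag-USP39 tags at a fold of 4.6, and the nearest POLR2A peak was 78.3 kb away.

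These low-fold peaks gathered beside the long stretches that held no peak of either list. The fold limit of 10 and the stretches were chosen after the values were seen. Among peaks with 10 or more tags, 12 of 107 Flag-USP39 intergenic peaks (11.2%) had a fold enrichment under 10, against 3.46% in the other classes (difference 7.75 points, 2.07 to 15.3). For POLR2A it was 20 of 141 (14.2%) against 7.52% (difference 6.66 points, 1.09 to 13.7). Within 1 Mb of the longest peak-free stretch of their chromosome lay 10 of these 12 Flag-USP39 peaks and 12 of the 20 POLR2A peaks. Of those with a fold of 10 or more, 4 of 95 and 0 of 121 did. The stretch of chromosome 1 measured 21.1 Mb and began at the EMBP1 peak. The low-fold peaks held 15.4% of the intergenic Flag-USP39 tags and 13.5% of the POLR2A tags.

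**Figure D2:**
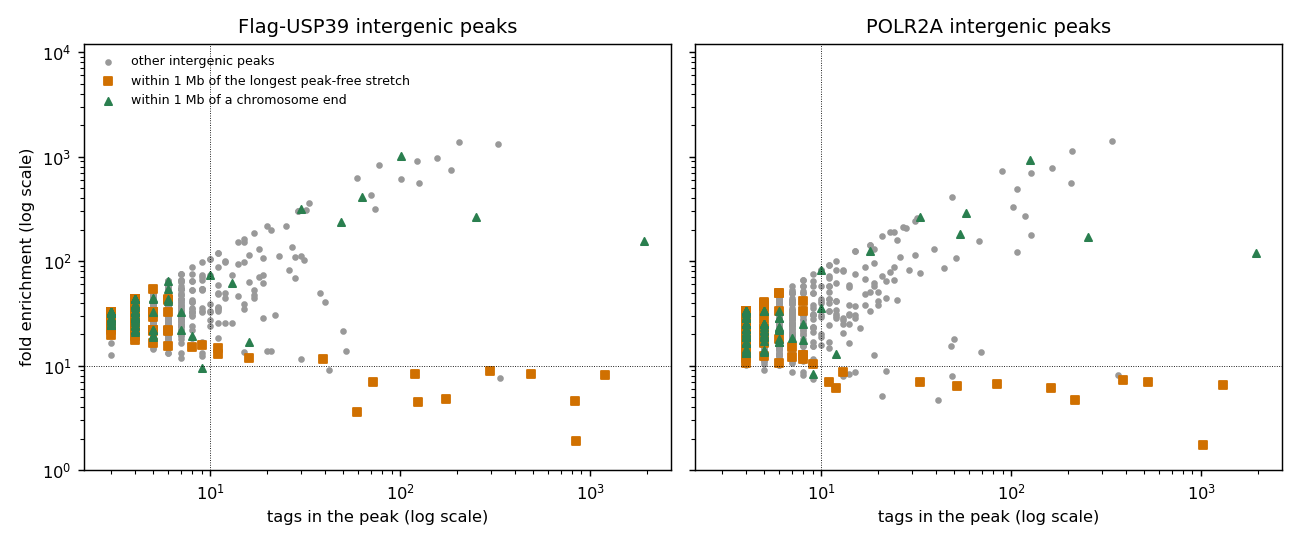
Fold enrichment (vertical, log scale) against tags (horizontal, log scale) for every intergenic peak of each list, marked by place; dotted lines stand at 10 tags and a fold of 10. Beside the longest peak-free stretch, most peaks with 10 or more tags fall under a fold of 10 (10 of 14 Flag-USP39, 12 of 12 POLR2A). EMBP1 does so at 1191 and 1296 tags, while most peaks elsewhere rise in fold with their tags.

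Intergenic peaks near chromosome ends were few, with a median of 4 tags in both lists, but more of them than elsewhere held 10 or more tags. Within 1 Mb of an end stood 92 Flag-USP39 (1.74%) and 88 POLR2A intergenic peaks (1.74%). The other classes had 1.69% and 2.82% there, a difference of 0.0445 points (-0.429 to 0.53) for Flag-USP39 and of -1.08 points (-1.56 to -0.562) for POLR2A. At the ends 10 of 92 Flag-USP39 peaks (10.9%) and 10 of 88 POLR2A peaks (11.4%) held 10 or more tags. Elsewhere 1.86% and 2.64% of the intergenic peaks did, which gave differences of 9.01 points (4.13 to 17) and 8.72 points (3.63 to 17). The end peaks also overlapped the other list more often, by 8.4 points (3.23 to 16.6) and 8.89 points (3.49 to 17.4).

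The peak with the most tags in either list stood at a chromosome end. PLEKHG4B named it, 129 kb away (chr5:9929-11904), and it held 1910 Flag-USP39 and 1938 POLR2A tags, at fold enrichments of 157 and 119. On chromosome 4 a peak named for ZNF595 (chr4:9924-10286) held 49 and 54 tags, and on chromosome 7 one named for LOC102723672 (chr7:9922-10587) held 30 and 33. These 3 began within 11 kb of position 1 in both lists. LOC100288778 (chr12:94898-95832) held 250 and 254 tags, and LOC102724511, on chromosome 6, held 63 and 58. Within 0.1 Mb of an end, 15 Flag-USP39 and 18 POLR2A intergenic peaks were listed, and 5 of each overlapped the other list.

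Few intergenic peaks were shared, and sharing followed the tags. A shared base or more with a POLR2A peak was found for 196 Flag-USP39 intergenic peaks (3.70%, 3.22 to 4.24), against 6.04% of the whole list. Of the POLR2A intergenic peaks 190 (3.76%, 3.27 to 4.32) overlapped a Flag-USP39 peak, against 5.10% of the whole list. Both were below the other classes, with differences of -4.31 points (-5.16 to -3.47) and -2.1 points (-2.8 to -1.37). They were not told apart from introns, with differences of 0.0756 points (-0.74 to 0.858) and 0.253 points (-0.543 to 1.03). Most shared peaks were intergenic in both lists, 172 of the 196 and 175 of the 190. The lists have unlike p-value limits, so the near-equal shares are not on 1 scale. At p-values of at most 1e-05 in both lists, 3.25% of Flag-USP39 and 6.95% of POLR2A intergenic peaks overlapped.

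With 3 to 5 tags 0.983% of Flag-USP39 and 1.06% of POLR2A intergenic peaks overlapped the other list. With 6 to 9 tags 18.0% and 10.3% did, with 10 to 19 tags 83.6% and 57.5%, and with 20 or more 88.5% and 82.0%. In the other classes the shares were 2.97% and 2.31% with 3 to 5 tags. They were 23.7% and 9.94% with 6 to 9, and 82.9% and 39.4% with 10 to 19. POLR2A peaks with 20 or more tags were shared more often than those of the other classes, where 64.1% overlapped a Flag-USP39 peak (difference 17.8 points, 4.53 to 28.5). For Flag-USP39 the order was the reverse, with 97.6% in the other classes (difference -9.19 points, -20.7 to -0.72). Of peaks with 10 or more tags, 92 of 107 Flag-USP39 and 96 of 141 POLR2A intergenic peaks were shared. In the other classes 204 of 231 (88.3%) and 220 of 452 (48.7%) were. The differences were -2.33 points (-10.9 to 4.84) for Flag-USP39 and 19.4 points (10.1 to 27.9) for POLR2A. By distance to the gene, Flag-USP39 overlap ran from 2.70% beyond 100 kb to 4.63% within 10 kb past an end, and POLR2A overlap from 2.59% at 10 to 20 kb to 4.45% at 20 to 100 kb.

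The tags of the 172 shared intergenic pairs rose together. Spearman's rho across pairs was 0.82 for tags and 0.80 for fold enrichment, a description over sites that share 1 input. The median Flag-USP39 to POLR2A tag ratio was 0.922 (quartiles 0.744 and 1.19), and 160 pairs (93.0%) lay within 2-fold of equal tags. In the 71 pairs with 10 or more tags in both lists the median ratio was 0.923. At the upper end ANKRD60 had 12 Flag-USP39 and 4 POLR2A tags. MIR610 had 22 and 7, but its Flag-USP39 peak also overlapped a second POLR2A peak, of 4 tags, which the pairing leaves out. The total tags of each library were not given in the sources used here, so the ratios are of the counts as listed. Each count covers its own list's peak, and paired peaks can differ in length.

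**Figure D3:**
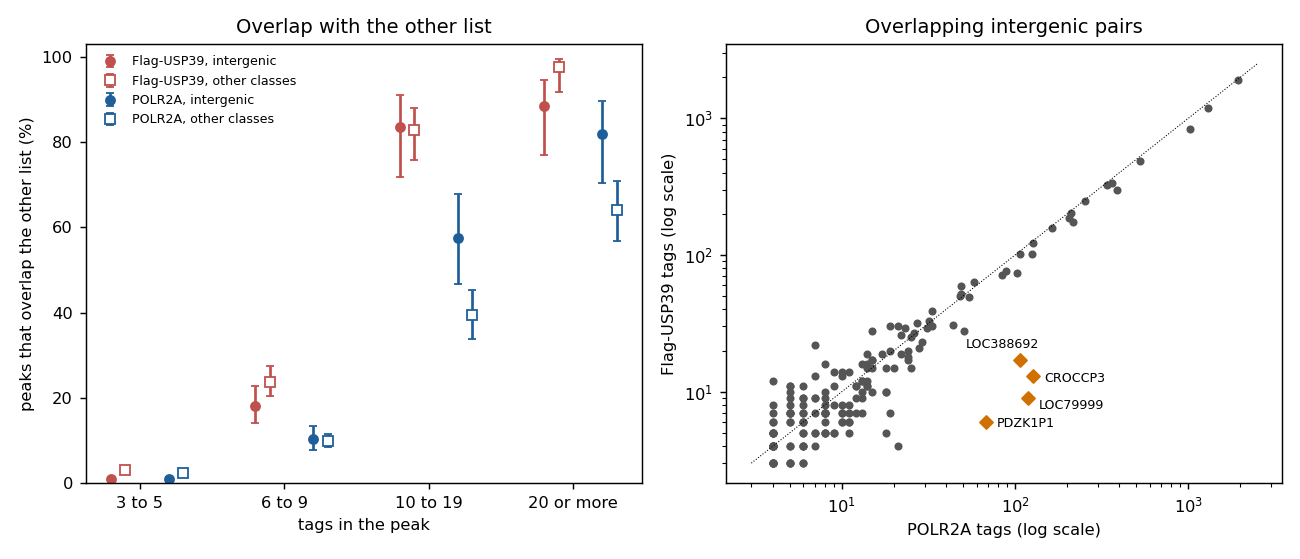
Left: share of peaks that overlap the other list (percent, bars are 95% Wilson intervals) by tags in the peak, for intergenic peaks (filled) and other classes (open). Right: Flag-USP39 against POLR2A tags (log scales) in the 172 overlapping intergenic pairs, the dotted line marking equal tags; most pairs follow it, and the 4 marked pairs, such as CROCCP3 with 13 and 127 tags, lie below.

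Most intergenic peaks had no neighbour of their own list nearby, and the longest runs were of POLR2A. Another intergenic peak lay within 50 kb on either side for 25.7% of Flag-USP39 and 25% of POLR2A peaks, and the median gaps were 329 and 344 kb. Runs of 3 peaks numbered 90 for Flag-USP39 and 70 for POLR2A, and runs of 4 numbered 15 in each list. POLR2A had 3 longer ones, of 13, 8 and 7 peaks, and Flag-USP39 had 2, of 5 peaks. Beside LINC01416, a long non-coding RNA gene on chromosome 18, 13 POLR2A peaks followed each other over 83.8 kb (chr18:53447636-53531395) with no Flag-USP39 peak among them. They held 4 to 9 tags each at fold enrichments of 15.1 to 41.6, and 7 of the 13 held 6 or more. Overlap was rare at such tags in general, at 1.06% of POLR2A intergenic peaks with 3 to 5 tags and 10.3% with 6 to 9. LINC00538, on chromosome 1, had 8 POLR2A peaks over 187 kb, each of 4 or 5 tags, with 2 Flag-USP39 peaks in the span. PROX1, a homeobox transcription factor gene, is among its neighbours in the RefSeq order.

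Beside the pseudogene ANP32AP1 on chromosome 15, 7 POLR2A peaks lay over 54.9 kb (chr15:35538298-35593204), the strongest with 20 and 11 tags, and no Flag-USP39 peak fell in the span. Beside CYTOR, a long non-coding RNA gene, 4 peaks of 5 to 9 tags lay within 16.6 kb, also without Flag-USP39. The longest Flag-USP39 runs, of 5 peaks with 3 to 5 tags, were beside LOC101929011 and between EMP1 and LINC01559. In the same way, no POLR2A peak fell in the span of either. Shorter Flag-USP39 runs were denser than those beside LINC01416 and ANP32AP1, with 4 peaks over 21.2 kb beside MEGF10 and 4 over 21.7 kb beside MIR7160. The genes with the most Flag-USP39 intergenic peaks were LOC645949 with 10, LOC101929406 with 9, and LOC646241 and MIR2054 with 8, spread over longer distances. The symbol MIR7641-2 also named 9 peaks, but on 6 chromosomes.

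**Figure D4:**
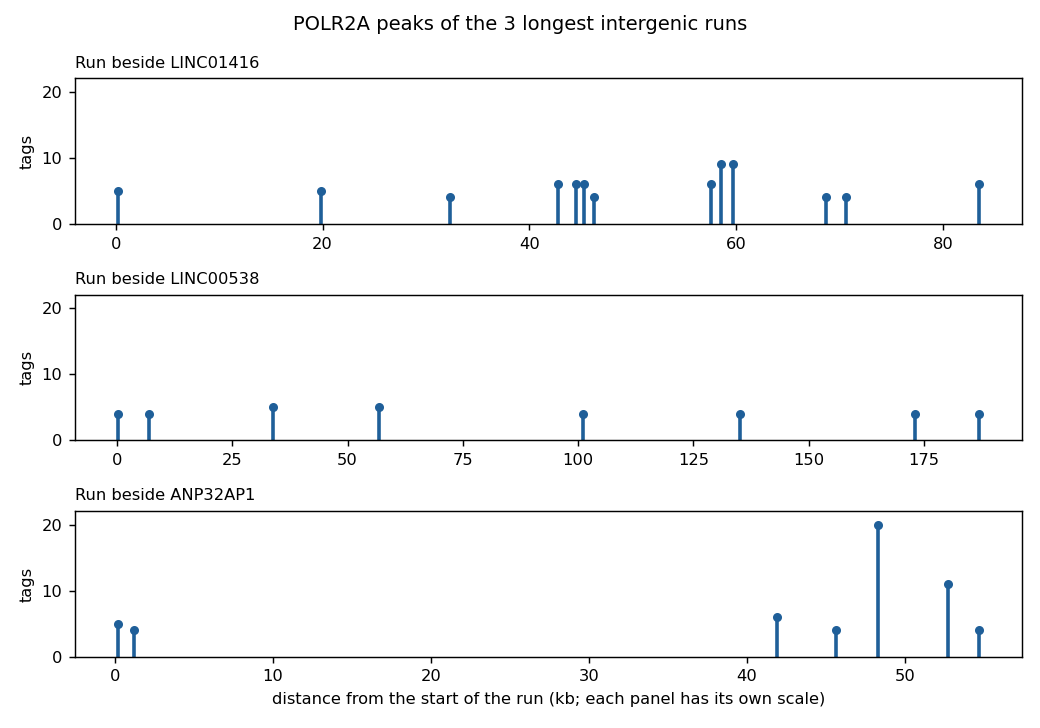
Tags (vertical) of each POLR2A peak in the 3 longest runs of intergenic peaks, against distance from the start of the run in kb. The run beside LINC01416 has 13 peaks of 4 to 9 tags, that beside LINC00538 has 8 of 4 or 5, and that beside ANP32AP1 has 7, the highest of 20.

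The intergenic share moved with the chromosome in both lists. It was highest on chromosome X, at 61.6% of Flag-USP39 and 51.9% of POLR2A peaks, and lowest on chromosome 19, at 25% and 20.7%. Chromosome 4 gave 54.1% and 47%, chromosome 17 gave 31.6% and 23.8%, and chromosome 22 gave 29.7% and 23.9%. The Flag-USP39 value was the higher on each of the chromosomes plotted. Gene density differs between these chromosomes and was not measured here.

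**Figure D5:**
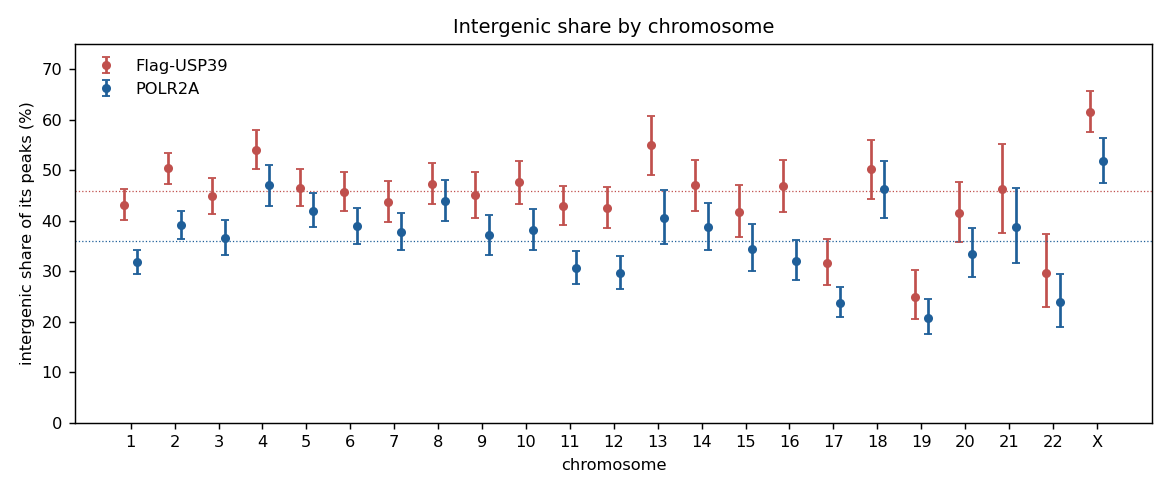
Intergenic share of the peaks on each chromosome (percent) for both lists, with 95% Wilson intervals; dotted lines mark the share over all peaks, 45.8% and 36.0%. Chromosomes X and 4 lie high and chromosomes 17, 19 and 22 low in both lists.

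The genes that name intergenic peaks were more often non-coding than those of other peaks. Protein-coding genes named 56.7% of Flag-USP39 and 57.6% of POLR2A intergenic peaks, against 82.9% and 83.4% in the other classes. Long non-coding RNA genes named 28.5% and 27.3%, against 10.9% and 9.77%, and microRNA genes 8.72% and 8.3%, against 2.46% and 2.82%. The named gene is the one with the nearest start and often lies far away. The farthest Flag-USP39 peak, of 4 tags, lay 1677 kb from LINC01467, and the farthest POLR2A peak, also of 4 tags, lay 1609.9 kb from the pseudogene ZNF733P. Some intergenic peaks lay inside another transcript placed by the tables, 386 Flag-USP39 (7.28%) and 297 POLR2A peaks (5.88%). Examples with 10 or more tags were a peak named for TNNT2 inside PKP1, with 40 Flag-USP39 tags and an exon-class POLR2A peak of 28, and one named for MIR634 inside PRKCA, with 38 and 42.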

How the data were processed

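The series holds 3 ChIP-seq libraries of A2780 cells, 1 for each antibody and 1 input, and groups were taken from the antibody in the labels. Per the submitters' processing notes, the tools include Bowtie2 2.2.4 and MACS 1.4.3 and the build is hg19. What was done with duplicate reads, the library totals and the annotation release were not given in the sources used here. Peaks came as 1 annotated table by the authors for either antibody, against the input. The authors' tag counts are counts of tags in the peak, as their header says. The score is a p-value on the authors' scale of -10 log10, per the file headers, with a lowest value of 50 for Flag-USP39 and 40 for POLR2A. The authors' fold enrichment, a ratio over background, is used here to describe and rank peaks within a list. The authors gave the FDR in percent, at most 0.01% and 0.26%.

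The tables repeat a peak for each transcript (20273 and 27766 lines). A line per position was kept, that with the start nearest to the peak centre, and the deposited intergenic class was taken. Distances run from the peak centre. Overlaps need at least 1 bp in common, and pairs were formed 1 to 1. Chromosome ends are position 1 and the largest position in the tables, and the window was 1 Mb. A run is a series of intergenic peaks with gaps of at most 50 kb. Gene kinds and neighbours came from a RefSeq table of GRCh38.p14 by symbol, without its coordinates. For gene kinds, 99.1% and 99.3% of intergenic peaks matched. For snRNA neighbours fewer did, 4760 of 5299 Flag-USP39 and 4593 of 5049 POLR2A intergenic peaks. Shares carry 95% Wilson intervals and differences Newcombe intervals. Peaks are not independent, and with 1 library per group no test was made.

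Genes were named by rule: the 10 peaks with the most tags and the 10 with the highest fold enrichment per list, the 5 farthest from a start, the 5 with the most tags at chromosome ends and past gene ends, the 5 genes with the most peaks, the 10 pairs with the most tags and the 5 longest runs, on chromosomes 1 to 22 and X. An item that this rule selects is not reported here. Any other gene was named after its values were seen, as the text says, or makes up a count. The members, lists and thresholds were chosen with earlier results of these data known. The overlap and distance procedures were tested on simulated peaks. Python 3.11.15, pandas 2.3.3, NumPy 2.4.6, SciPy 1.17.1 and matplotlib 3.10.9 were used. Alternatives were stricter p-values, other tag and distance limits, other overlap rules and the nearest gene in either table.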

Additional observations from a re-analysis of the deposited data

How the results depend on the processing

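No paired analysis was possible because each group has 1 library; for the same reason no replicate could be left out. Of 96 values recomputed, 62 moved by less than their counting interval and 34 by more. The 62 are no measure of stability, since many could hardly move. The 16 with a peak taken as intergenic only where every line says so were all unchanged. The limit of 1e-05 removed no Flag-USP39 peak, so of the values of that list only the overlap could change. Also among the 62 were the 16 without peaks beside a peak-free stretch or of low fold. That alternative was chosen after seeing the data. It kept 5199 of 5299 Flag-USP39 and 4936 of 5049 POLR2A intergenic peaks. Values follow as Flag-USP39, then POLR2A, in percent.

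At p-values of at most 1e-10, which left 119 and 127 intergenic peaks, the intergenic share was 31.2 and 24.4. Peaks within 10 kb past an end were 9.24 and 18.9, at 10 to 20 kb 5.04 and 1.57, at 20 to 100 kb 51.3 and 50.4, and beyond 100 kb 34.5 and 29.1. Those with 10 or more tags were 73.9 and 86.6, at chromosome ends 7.56 and 7.09, and overlapping 69.7 and 61.4. At 1e-05 in both lists, POLR2A had an intergenic share of 34.5, 5.53 with 10 or more tags and 6.95 overlapping. With the nearest start or end of either table, 42.6 and 42.5 lay at 20 to 100 kb, 35.2 and 30.3 beyond 100 kb, and 14.5 of POLR2A within 10 kb past an end. Peaks with 6 or more tags were 7.89 and 11.8, and with 20 or more 0.981 and 1.21. Within 0.5 Mb of an end lay 0.868 and 0.891, within 2 Mb 3.28 and 3.68. Overlap was 86 and 68.1 among peaks with 10 or more tags. Stricter limits keep peaks with more tags by construction; the cause of the other changes was not tested. At both p-value limits and with the nearest start or end of either table, POLR2A kept the larger share within 10 kb past an end. Flag-USP39 kept the larger share beyond 100 kb there, and the larger intergenic share at both p-value limits. At 1e-10 the intervals overlapped for all of these. Within 10 kb they were 5.24 to 15.8 on 11 Flag-USP39 peaks and 13 to 26.6 on 24 POLR2A peaks. Beyond 100 kb they were 26.5 to 43.4 and 21.9 to 37.6, and for the intergenic share 26.8 to 36.1 and 20.9 to 28.3. The order at 10 to 20 kb turned at 1e-10, but on 2 POLR2A and 6 Flag-USP39 peaks with overlapping intervals. With a median of 4 tags per peak, a peak missing from a list does not show that no tags were there.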
